A study of Mus musculus with 6 samples.

Results

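The genes described here are 34 genes of the unfolded protein response and of the response to amino acid shortage, chosen by name and read through every array probe annotated to them. They fall into an endoplasmic reticulum (ER) chaperone branch of 18 genes, an ATF4 branch of 13 genes and 3 stress sensors, out of 17658 named genes on the array. Of the 34, 32 had an annotated probe (47 of the 46120 probes), whereas Atf6, a membrane-bound sensor, and Sdf2l1, an ER co-chaperone, had none. A gene was tested if a probe lay above the array's background on at least 2 of the 6 arrays, which 26 members did: 13 of the ER branch, 11 of the ATF4 branch and the sensors Eif2ak3 and Ern1. The members that reached this through their brighter arrays alone were Dnajb9 and Ern1, each above background on 2 arrays, IKKa-null 1 and reconstituted 1.

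Unfolded proteins in the ER are sensed by Ern1 (IRE1), Atf6 and Eif2ak3 (PERK). Ern1 splices the mRNA of the transcription factor Xbp1, and XBP1 and ATF6 together induce chaperones, disulphide isomerases and the machinery that removes misfolded proteins. PERK phosphorylates the translation factor eIF2, as does the amino acid sensor GCN2, and this favours translation of ATF4, which induces genes of amino acid synthesis and uptake as well as regulators such as Ddit3 (CHOP).

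RNA came from mouse embryonic fibroblasts cultured in medium with 10% serum to 80% confluency and was measured on Illumina bead arrays, with 2 arrays in each of 3 groups. The groups were wild-type cells, IKKa-null cells (labelled IKKa-/-), which lack a kinase of the NF-kappaB pathway, and cells labelled IKKa+/+reconstituted, in which the labels name the kinase as restored. No stress agent is named for any group. The labels do not say whether the arrays of a group came from separate cultures, whether a group was 1 line or several, or how the kinase was put back, so the p-values measure the spread between these arrays, which may be technical.

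Several facts of the whole series bear on the comparisons. No annotated probe read Chuk, the gene of IKKa, so the deletion and its restoration were not checked. A probe for the SV40 large T antigen read a raw intensity of 4431.6 and 6076.1 in wild-type cells and 88.6 to 212.3 on the other 4 arrays, while a neomycin resistance probe read 106.5 and 117.8 in wild-type cells and 2230.7 to 3458.1 elsewhere. Wild-type cells also differed in sex-linked transcripts, where Xist averaged 8.55 against 5.17 for IKKa-null cells (log2 normalized signal) and the Y-linked Eif2s3y 4.92 against 8.44. A difference of either other group from wild-type cells and these differences between the cells cannot be told apart. Fibroblast markers lay above background on both arrays for 8, 12 and 11 of 13 annotated genes in wild-type, IKKa-null and reconstituted cells. Lum was not above background in any group, Vim was not in wild-type or reconstituted cells, and Sparc was not in wild-type cells. The summed intensity of that list, after background correction and before normalization, was 6094 to 6839, 7125 to 8188 and 19123 to 25720 in the same order of groups. Of the markers of other cell types, those above background on both arrays in wild-type, IKKa-null and reconstituted cells numbered 2, 2 and 0 of 6 epithelial, 1, 1 and 1 of 5 endothelial, 1, 1 and 0 of 4 adipocyte, and 0, 1 and 0 of 5 macrophage and blood genes, and 0 of 5 plasma cell and 0 of 5 muscle genes in each group. The same sum for the epithelial list was 553 to 652, 422 to 425 and 190 to 203 in that order, and for the endothelial list 1574 to 1594, 527 to 548 and 700 to 1133. Adipocyte sums were 320 to 430, 394 to 411 and 194 to 212, and macrophage and blood sums 154 to 200, 278 to 371 and 193 to 215. Cdh1, Krt8, Pecam1, Cdh5, Adipoq and Ptprc were among the genes not above background in any group. The epithelial genes above it in wild-type and IKKa-null cells were Krt14 and Krt19, and the endothelial gene above it in each group was Flt1. The part of these cell types in the results was not tested. In RNA from whole cultures, fewer cells of a type and less RNA per cell cannot be told apart. Array reconstituted 2 had the lowest bright end, with a 99th percentile of raw intensity of 2759.8 against 3155.6 to 4237.0 on the other arrays. Signals below are log2 values after background correction and quantile normalization, and they are compared between arrays for 1 probe, never between probes.

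The promoters of the chaperone genes are shown because several of them hold the ER stress response element (ERSE), which can be set beside how those genes behaved. RefSeq windows from 250 bases before to 50 bases after the annotated start (GRCm38.p6) were found for 30 of the 34 members and searched on both strands for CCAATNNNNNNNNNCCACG (ERSE), ATTGG and CCACG separated by 1 base (ERSE-II) and TGATGNAA (CARE, the element that ATF4 complexes bind). ERSE letters were present in 8 of the 16 ER-branch windows, those of Calr, Canx, Creld2, Dnajc3, Hsp90b1, Hspa5, Pdia6 and Syvn1. The share of all 32851 promoter windows with ERSE was 0.119%, and 0 of the 12 ATF4-branch windows held it. ERSE-II was found in Herpud1 alone among the members (0.0365% of all windows). CARE was found in Asns, Chac1, Trib3 and Herpud1 (3.97% of all windows). The stretches around the matches are printed on the gene's own strand, 5′ to 3′, with the fixed letters of each match in capitals. A match was found on the reverse strand in Creld2, Chac1, the CARE of Herpud1 and the second ERSE of Hsp90b1, and there the capitals read as the reverse complement. The matches in Herpud1 did not overlap. Each stretch is named with its coordinates and strand.
Hspa5, chr2:34772005-34772063, plus strand: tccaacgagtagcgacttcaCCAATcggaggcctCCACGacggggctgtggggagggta
Hsp90b1, chr10:86705513-86705676, minus strand: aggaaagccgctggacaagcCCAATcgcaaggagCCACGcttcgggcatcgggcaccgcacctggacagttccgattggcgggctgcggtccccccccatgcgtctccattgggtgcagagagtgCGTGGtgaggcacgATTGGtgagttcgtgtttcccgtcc
Canx, chr11:50325780-50325838, minus strand: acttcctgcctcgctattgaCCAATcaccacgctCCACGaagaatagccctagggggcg
Creld2, chr15:88819500-88819558, plus strand: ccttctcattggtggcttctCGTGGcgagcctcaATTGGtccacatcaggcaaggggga
Pdia6, chr12:17266471-17266529, plus strand: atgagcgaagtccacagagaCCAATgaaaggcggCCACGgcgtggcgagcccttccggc
Syvn1, chr19:6046512-6046570, plus strand: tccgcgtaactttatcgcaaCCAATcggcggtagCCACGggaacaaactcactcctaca
Herpud1, chr8:94386297-94386407, plus strand: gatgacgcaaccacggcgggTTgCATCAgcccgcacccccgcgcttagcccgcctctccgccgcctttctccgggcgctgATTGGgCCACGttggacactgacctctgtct
Chac1, chr2:119351029-119351076, plus strand: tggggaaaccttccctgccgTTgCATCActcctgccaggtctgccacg
Asns, chr6:7693210-7693252, minus strand: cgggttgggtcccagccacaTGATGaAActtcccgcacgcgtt

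Counted from the annotated start, ERSE lay at -65 to -47 in Hspa5, at -145 to -127 in Canx, at -126 to -108 in Creld2, at -98 to -80 in Pdia6 and at -44 to -26 in Syvn1. Hsp90b1 held it at -212 to -194 and again at -107 to -89. CARE lay at -23 to -16 in Asns, at -193 to -186 in Chac1 and at -112 to -105 in Herpud1, whose ERSE-II lay at -52 to -42. These matches describe letters in a window and are not measured sites of binding.

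**Figure D1:**
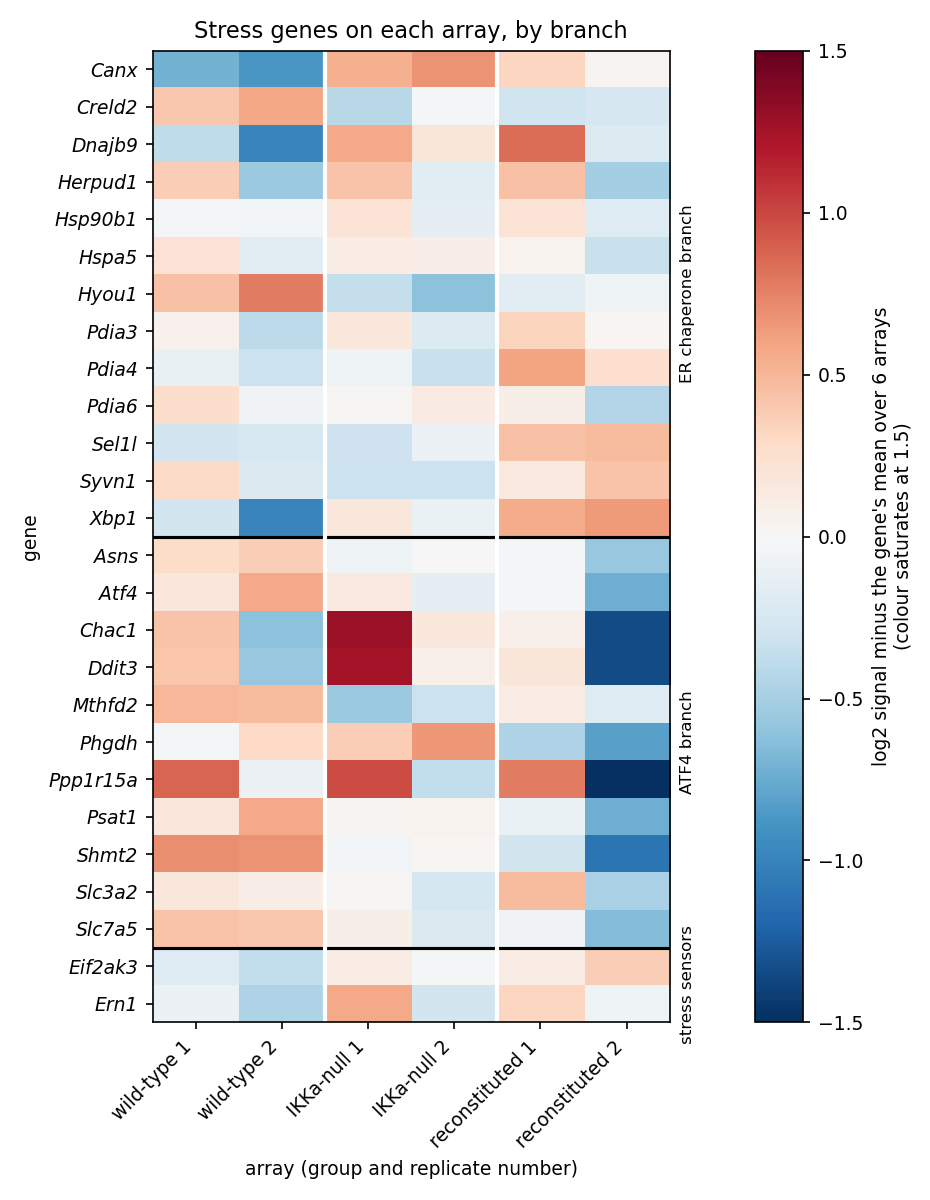
Log2 normalized signal of the 26 tested members on each of the 6 arrays (columns), given as the difference from the gene's mean over the arrays, with branches separated by black lines. Canx is low on both wild-type arrays, most ATF4-branch genes are lowest on array reconstituted 2, and Chac1, Ddit3 and Ppp1r15a are brighter on the array numbered 1 of every group.

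The first question was how loss of IKKa went with the resting level of these genes. In the IKKa-null cells, Canx, the lectin chaperone calnexin, was higher than in wild-type cells, and Hyou1, a large ER chaperone, Creld2, an ER stress-inducible protein, and Mthfd2, a mitochondrial folate enzyme, were lower. By limma's moderated test with Benjamini-Hochberg adjustment over all 11658 probes tested, called at an adjusted p under 0.05, 4 of the 26 members were called, 1 higher and 3 lower. Of the 7407 named genes tested, 29% were called in this comparison, 13.6% higher and 15.4% lower. The members' share was the smaller, and that difference was not tested. The ER branch had 1 member higher and 2 lower with a median log2 change of 0.07, and the ATF4 branch 0 higher and 1 lower with a median of -0.32, against a median of -0.117 over all named genes.

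Canx read 6.84 and 6.68 on the wild-type arrays, 8.08 and 8.22 on the IKKa-null arrays and 7.87 and 7.58 on the reconstituted arrays. Both wild-type arrays lay below the other 4, and the groups did not overlap. The change from wild-type to IKKa-null was 1.39 ± 0.186 (log2 change ± SE, 2.62-fold, limma adjusted p = 0.00282), and it was called under all 15 alternative settings. On the wild-type arrays Canx had a raw intensity of 188.3 and 203.9, where the 99th percentile of the background probes was 156.9 and 169. The size of the change ranged from 0.9 to 1.55 over the alternatives. A second Canx probe was not above background on any array.

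Hyou1 read 7.70 and 8.02 on the wild-type arrays, 6.90 and 6.64 on the IKKa-null arrays and 7.10 and 7.19 on the reconstituted arrays, so the wild-type arrays were the brightest. It fell by 1.09 in IKKa-null cells (SE 0.195, limma adjusted p = 0.00814). That call was lost under median scaling and when replicate 2 of either group was left out, where adjusted p reached 0.0684 at most and the change ranged from -1.25 to -0.68 over the alternatives.
Creld2 read 9.52 and 9.70 on the wild-type arrays, 8.70 and 9.11 on the IKKa-null arrays and 8.82 and 8.87 on the reconstituted arrays. Again both wild-type arrays were above the rest. It fell by 0.71 in IKKa-null cells (SE 0.199, limma adjusted p = 0.0375), a call lost without any 1 of the 4 arrays compared, under median scaling and with no filter on dim probes (adjusted p up to 0.295).

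Mthfd2 read 11.27 and 11.25 on the wild-type arrays, 10.21 and 10.44 on the IKKa-null arrays and 10.88 and 10.57 on the reconstituted arrays. The wild-type arrays were highest, the IKKa-null arrays lowest and the reconstituted arrays between them. It fell by 0.93 in IKKa-null cells (SE 0.19, limma adjusted p = 0.0128), and the call was lost without either wild-type replicate, without IKKa-null replicate 1 and under median scaling (adjusted p up to 0.151). The return toward wild-type in the reconstituted cells was 0.40 ± 0.19 and did not pass the test (limma adjusted p = 0.215).

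Hspa5 and Hsp90b1 did not pass the test in any comparison of groups. Hspa5 (BiP), the main ER chaperone of the Hsp70 family, read 8.17 and 7.80 on the wild-type arrays, 8.07 and 8.05 on the IKKa-null arrays and 8.01 and 7.62 on the reconstituted arrays. Hsp90b1 (GRP94), the ER member of the Hsp90 family, read 11.08 and 11.06, 11.31 and 10.97, and 11.31 and 10.91 in the same order. The wild-type and IKKa-null arrays overlapped for both genes, whose IKKa-null to wild-type changes were 0.08 ± 0.215 and 0.07 ± 0.213. Thus of the ERSE-bearing promoters printed above, Canx was called higher and Creld2 lower in the same cells, while Hspa5, Hsp90b1, Pdia6 and Syvn1 were not called.

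**Figure D2:**
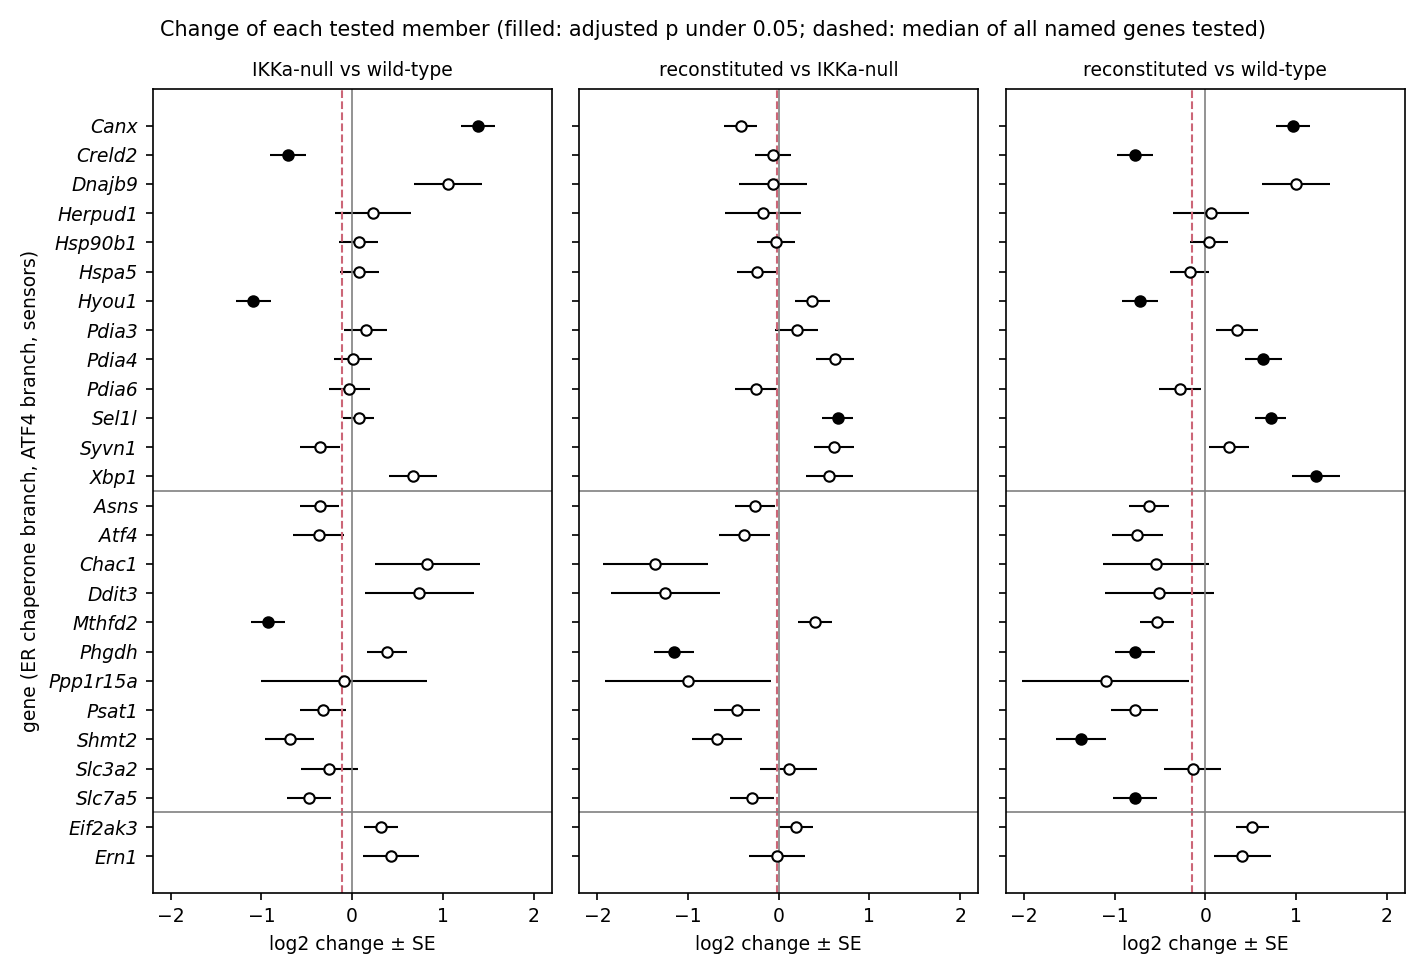
Log2 change with its standard error for each tested member in the 3 group comparisons, which share arrays. Filled points passed an adjusted p under 0.05, and the dashed line marks the median of all named genes (-0.117, -0.024 and -0.145). All 11 ATF4-branch points of the right panel lie below 0, and 3 of them are filled.

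The second question was which of these levels differed once IKKa was restored. Between reconstituted and IKKa-null cells, Sel1l, an adaptor of the ER degradation complex, was higher and Phgdh, which catalyses the first step of serine synthesis, was lower. These were the only 2 of 26 members called by limma, where 14.3% of named genes were called (6.89% higher, 7.41% lower).

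Phgdh read 9.25 and 9.54 in IKKa-null, 8.43 and 8.07 in reconstituted and 8.86 and 9.18 in wild-type cells. The groups were apart, with the reconstituted arrays lowest. It fell by 1.15 from IKKa-null to reconstituted cells (SE 0.22, limma adjusted p = 0.0178), and by 0.77 against wild-type cells (adjusted p = 0.0319). The first call was lost without either IKKa-null replicate or without reconstituted replicate 2 (adjusted p up to 0.113). The second was lost without either wild-type replicate, without reconstituted replicate 2, under median scaling and with no filter (adjusted p up to 0.165).

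Sel1l read 8.20 and 8.42 in IKKa-null, 8.22 and 8.27 in wild-type and 8.94 and 8.98 in reconstituted cells. Both reconstituted arrays stood above the other 4, which overlapped. It rose by 0.65 against IKKa-null cells (limma adjusted p = 0.0498), a call kept under 5 of 15 alternatives and lost without any 1 array, with adjusted p up to 0.673. Against wild-type cells it rose by 0.72 ± 0.171 (adjusted p = 0.0173), and that call was kept under 11 alternatives and lost without either wild-type replicate, without reconstituted replicate 2 and under median scaling (adjusted p up to 0.307). Its partner ubiquitin ligase Syvn1 (HRD1) read 10.73 and 10.74 in IKKa-null, 11.20 and 11.48 in reconstituted and 11.34 and 10.84 in wild-type cells, and its change of 0.61 ± 0.221 from IKKa-null cells was not called (limma adjusted p = 0.123).

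Canx, Hyou1, Creld2 and Mthfd2, the 4 members called when IKKa was absent, included none that was called between reconstituted and IKKa-null cells. The changes there were -0.42 for Canx, 0.37 for Hyou1, -0.06 for Creld2 and 0.40 for Mthfd2, with standard errors from 0.186 to 0.199. The 2 comparisons share the IKKa-null arrays.

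The comparison of reconstituted with wild-type cells called the most members of the 3. Among ER-branch members, Canx, Xbp1, Sel1l and Pdia4 were higher and Creld2 and Hyou1 lower in reconstituted cells, whereas the ATF4 branch had Phgdh, Shmt2 and Slc7a5 lower and 0 higher. These 9 of 26 members stood beside 36.9% of named genes called by limma in this comparison (15.6% higher, 21.3% lower), a share close to theirs. Without wild-type replicate 2, 0 members were called in this comparison. The comparison shares the wild-type arrays with the first and the reconstituted arrays with the second.

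Xbp1, the transcription factor of the branch, read 10.73 and 10.01 on the wild-type arrays, 11.17 and 10.90 on the IKKa-null arrays and 11.55 and 11.63 on the reconstituted arrays. The 3 groups did not overlap, with wild-type lowest and reconstituted highest. The reconstituted to wild-type change was 1.22 ± 0.261 (2.34-fold, limma adjusted p = 0.012). It was called under 14 of 15 alternatives and lost without wild-type replicate 2, the dimmer wild-type array (adjusted p = 0.0562). The change from wild-type to IKKa-null cells, 0.67 ± 0.261, was not called (limma adjusted p = 0.0977). The array files do not separate spliced from unspliced Xbp1 mRNA.

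Pdia4, a disulphide isomerase, read 9.75 and 9.54 on the wild-type arrays, 9.79 and 9.53 on the IKKa-null arrays and 10.45 and 10.11 on the reconstituted arrays. The reconstituted arrays lay above all others. It rose by 0.64 ± 0.205 against wild-type cells (limma adjusted p = 0.0486). The call was kept under 7 alternatives and lost without any 1 array, under median scaling and with no filter (adjusted p up to 0.414). Its relatives Pdia3 and Pdia6 were not called in any comparison. Pdia3 read 11.67 and 11.22 on the wild-type arrays, 11.78 and 11.41 on the IKKa-null arrays and 11.94 and 11.64 on the reconstituted arrays, and Pdia6 ranged from 6.62 to 7.31 over the 6 arrays.

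The members already lower in IKKa-null cells were also below wild-type in reconstituted cells. Creld2 fell by 0.77 (SE 0.199, limma adjusted p = 0.0237) and Hyou1 by 0.72 (SE 0.195, adjusted p = 0.0277). Both calls were lost without wild-type replicate 2, without either reconstituted replicate and under median scaling, and that of Creld2 also without wild-type replicate 1 (adjusted p up to 0.121 and 0.167). Canx was higher by 0.97 ± 0.186 (limma adjusted p = 0.00825), a call lost under median scaling and when wild-type replicate 2 was left out (adjusted p up to 0.0655).

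**Figure D3:**
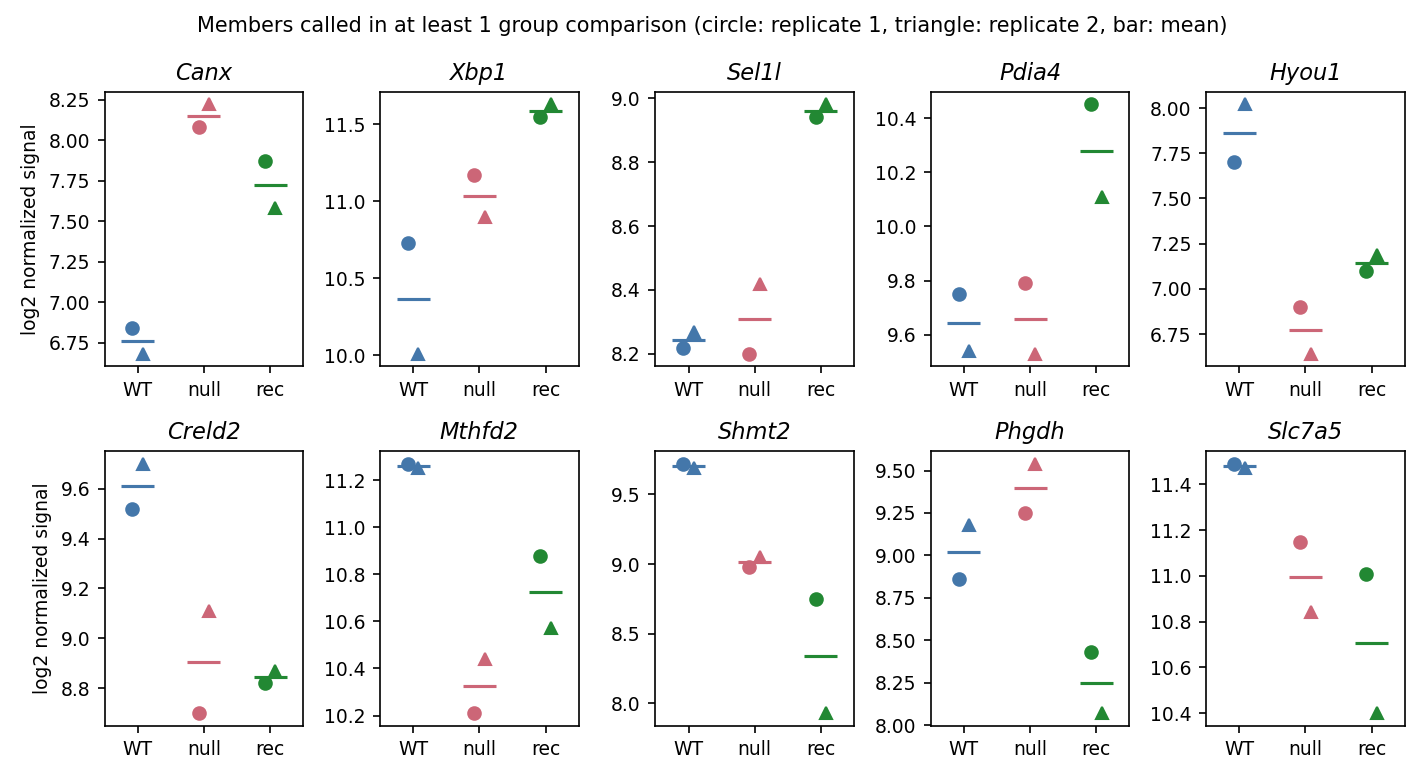
Log2 normalized signal of the 10 members called in at least 1 group comparison, on each array of wild-type (WT), IKKa-null (null) and reconstituted (rec) cells, with the group mean as a bar and a separate vertical scale for each gene. Canx is lowest and Mthfd2, Shmt2, Hyou1, Creld2 and Slc7a5 are highest on the wild-type arrays, while Sel1l, Pdia4 and Xbp1 are highest on the reconstituted arrays.

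In the ATF4 branch, genes of serine and one-carbon synthesis were among those called. Shmt2, the mitochondrial serine hydroxymethyltransferase, read 9.72 and 9.69 on the wild-type arrays, 8.98 and 9.05 on the IKKa-null arrays and 8.75 and 7.93 on the reconstituted arrays. The groups did not overlap, and array reconstituted 2 was the lowest. Against wild-type cells it fell by 1.37 in reconstituted cells (SE 0.272, limma adjusted p = 0.00936), and its second probe fell by 1.34 (adjusted p = 0.0191) with 1 of 2 reconstituted arrays above background. The call was kept under 14 of 15 alternatives and lost without wild-type replicate 2 (adjusted p = 0.0512). Its change from wild-type to IKKa-null cells, -0.69 ± 0.272, was not called (limma adjusted p = 0.101). The second probe's change there, -0.95, was not called either (limma adjusted p = 0.0692). This depended on the setting: Shmt2 was called lower in IKKa-null cells with no background correction and with the deposited matrix values.

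Slc7a5, the large neutral amino acid transporter LAT1, read 11.49 and 11.47 on the wild-type arrays, 11.15 and 10.84 on the IKKa-null arrays and 11.01 and 10.40 on the reconstituted arrays. The wild-type arrays were highest and the other groups overlapped. It fell by 0.77 from wild-type to reconstituted cells (SE 0.242, limma adjusted p = 0.0449), a call kept under 7 alternatives. It was lost under median scaling, cyclic loess and no filter, and without any 1 array other than reconstituted replicate 1 (adjusted p up to 0.182). Slc3a2, the heavy chain that carries this transporter to the membrane, read 11.14 and 11.07, 10.99 and 10.72, and 11.45 and 10.49 in wild-type, IKKa-null and reconstituted cells and was not called.

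The remaining biosynthetic members were not called but read lower in reconstituted than in wild-type cells. Psat1, which follows Phgdh in serine synthesis, read 11.42 and 11.82 on the wild-type arrays, 11.29 and 11.31 on the IKKa-null arrays and 11.16 and 10.52 on the reconstituted arrays (reconstituted to wild-type change -0.78 ± 0.255, limma adjusted p = 0.0506). Asns, asparagine synthetase, whose CARE stretch is printed above, read 10.74 and 10.84, 10.40 and 10.46, and 10.45 and 9.90 in that order (change -0.62 ± 0.22, adjusted p = 0.0646). The wild-type arrays of both genes lay above all others. Second probes of Psat1 and Asns gave changes of -0.68 and -0.71, also not called. Mthfd2 changed by -0.53 ± 0.19 in the same comparison (limma adjusted p = 0.0668). Psat1, Asns and Mthfd2 were called lower there with no background correction, the deposited matrix values, an offset of 50 and probes detected on all 6 arrays. They were not called under median scaling, cyclic loess, no filter or the replicate block.

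All 11 tested ATF4-branch members had a negative reconstituted to wild-type change, with a median of -0.75 on the log2 scale against -0.145 over all named genes. The 15 other tested ATF4 regulators and targets had a median of 0.41 in the same comparison, with 2 higher and 0 lower. The negative sign of the 11 members leaned on array reconstituted 2. Without it, 7 of 11 changes were negative and the median was -0.38, with 1 member of either branch called lower, and without reconstituted replicate 1 the median was -1.1. The median deviation of the branch from each gene's mean was 0.41 and 0.37 on the wild-type arrays, 0.09 and 0 on the IKKa-null arrays, and -0.02 and -0.73 on the reconstituted arrays, where all named genes stood at -0.06 and -0.05. The ER branch had 0.33 and -0.07 on the reconstituted arrays and a median change of 0.26 against wild-type cells. The lower bright end of array reconstituted 2 moves with these values, and its part in them was not tested.

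Atf4 itself, the transcription factor of the branch, read 8.51 and 8.91 on the wild-type arrays, 8.49 and 8.18 on the IKKa-null arrays and 8.32 and 7.60 on the reconstituted arrays. The wild-type arrays were the highest, and array IKKa-null 1 was within 0.02 of the lower of them. Its changes were -0.37 ± 0.283 in IKKa-null and -0.75 ± 0.283 in reconstituted cells against wild-type, and neither was called (limma adjusted p = 0.355 and 0.0779). The second depended on the setting: Atf4 was called lower in reconstituted cells with no background correction and with the deposited matrix values. Since ATF4 is controlled largely through translation, its mRNA level is a partial view of its activity.

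Chac1, Ddit3 and Ppp1r15a of the ATF4 branch differed between the arrays of each group. Chac1, a glutathione-degrading enzyme, read 11.12 and 10.07 on the wild-type arrays, 11.99 and 10.86 on the IKKa-null arrays and 10.77 and 9.35 on the reconstituted arrays. Ddit3, the transcription factor CHOP, read 9.66 and 8.68, 10.50 and 9.32, and 9.43 and 7.90 in the same order. Ppp1r15a (GADD34), which directs the phosphatase that restores eIF2, read 8.33 and 7.37, 8.44 and 7.08, and 8.22 and 5.29, the last not above background. In each group the array numbered 1 was the brighter one for all 3 genes, and the groups overlapped in most comparisons.

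The differences between the arrays numbered 1 and 2 in wild-type, IKKa-null and reconstituted cells were 1.05, 1.13 and 1.42 for Chac1, 0.98, 1.18 and 1.52 for Ddit3, and 0.96, 1.36 and 2.93 for Ppp1r15a. Herpud1, an ER membrane protein of the degradation machinery whose window holds both ERSE-II and CARE letters, differed by 0.93, 0.58 and 0.95. These 4 of 26 members were brighter on array 1 by at least 0.5 in all 3 groups, as were 0.918% of named genes, and 0 members were brighter on array 2 by that much in all groups, as were 0.216%. Among the enzymes, Asns, Psat1, Phgdh, Shmt2 and Mthfd2 differed by -0.39 to 0.03 in wild-type and IKKa-null cells and by 0.31 to 0.82 in reconstituted cells.

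Tested over the 6 arrays with group in the limma fit, 0 members were called between the array numbers, as were 0.0405% of named genes. At an unadjusted p under 0.05 there were 7 of 26 members and 9.4% of all probes. The change was 1.20 ± 0.149 for Chac1 and 1.23 ± 0.161 for Ddit3 (limma adjusted p = 0.143 and 0.144), 1.75 ± 0.364 for Ppp1r15a (0.293) and 0.82 ± 0.15 for Herpud1 (0.24), higher on array 1 in 3 of 3 groups for each. Chac1 and Ddit3 were called under 5 of 14 alternatives. Among them were no background correction (limma adjusted p = 0.00371 and 0.00579) and the deposited matrix values, which nearly repeat it. The changes of Chac1 and Ddit3 ranged from 1.09 to 1.34 and from 1.05 to 1.35. Ppp1r15a was called under 3 of 13 alternatives and Herpud1 under 0 of 14, with changes from 1.08 to 2.14 and from 0.62 to 0.94. The labels give no meaning to the array numbers, and whether they mark a culture, a day or a chip was not tested.

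**Figure D4:**
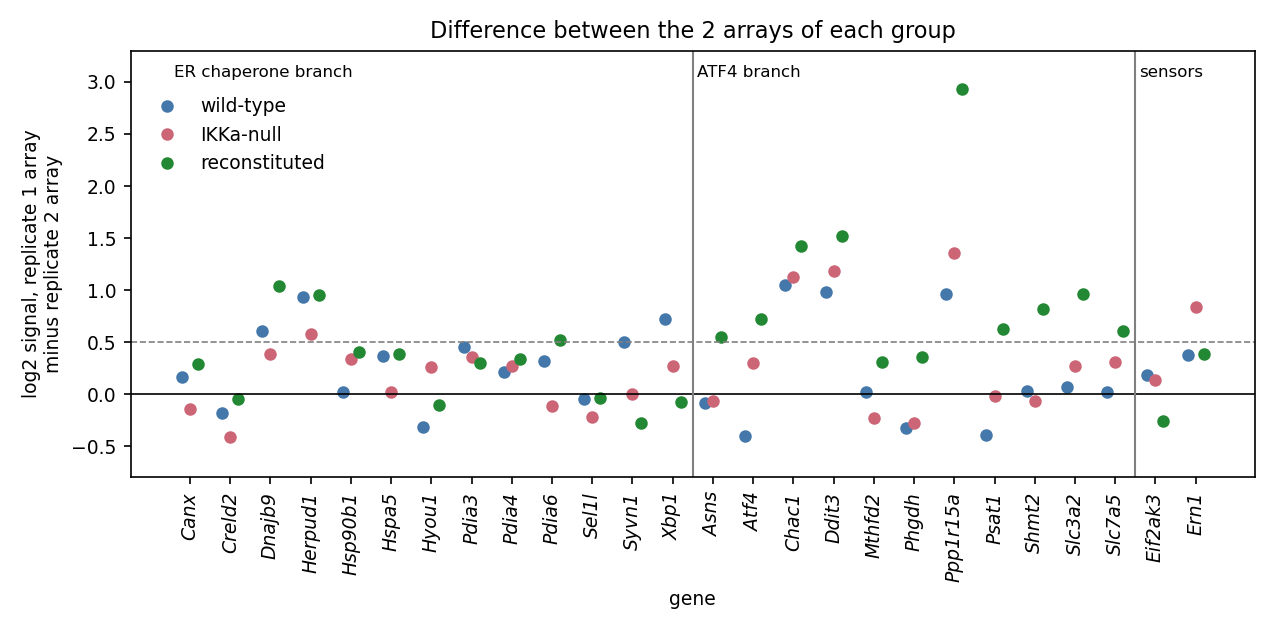
Difference in log2 normalized signal between the array numbered 1 and the array numbered 2 of each group, for the 26 tested members, with the 0.5 threshold dashed. Herpud1, Chac1, Ddit3 and Ppp1r15a lie above the threshold in all 3 groups. The synthetic enzymes lie between -0.39 and 0.03 in wild-type and IKKa-null cells.

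In the group comparisons Chac1, Ddit3 and Ppp1r15a were not called. These results depended on the setting: Chac1 and Ddit3 were called lower in reconstituted than in IKKa-null cells under median scaling, for example, and Ppp1r15a lower in reconstituted than in wild-type cells without reconstituted replicate 1. Chac1 and Ddit3 changed by 0.83 ± 0.583 and 0.74 ± 0.601 in IKKa-null against wild-type cells (limma adjusted p = 0.321 and 0.385), and by -1.36 and -1.25 in reconstituted against IKKa-null cells (0.176 and 0.224). Compared among arrays of the same number, Chac1 was higher in IKKa-null than wild-type cells by 0.87 and 0.78 and lower in reconstituted than IKKa-null cells by -1.22 and -1.51. For Ddit3 the same values were 0.84 and 0.64, and -1.08 and -1.42.

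The sensors were not called under the main setting. Eif2ak3 was called higher in reconstituted than in wild-type cells under cyclic loess and with probes detected on all 6 arrays. Eif2ak3 (PERK) read 6.97 and 6.79 on the wild-type arrays, 7.27 and 7.13 on the IKKa-null arrays and 7.27 and 7.53 on the reconstituted arrays, with the wild-type arrays lowest (reconstituted to wild-type change 0.52 ± 0.184, limma adjusted p = 0.0655). Ern1 (IRE1) read 6.11 and 5.73, 6.77 and 5.93, and 6.52 and 6.13, and lay above background only on the arrays numbered 1 of the last 2 groups. Dnajb9 (ERdj4), a co-chaperone induced through XBP1, was not above background on either wild-type array. It read 5.23 and 4.62 on the wild-type arrays, 6.18 and 5.79 on the IKKa-null arrays and 6.45 and 5.40 on the reconstituted arrays, and its change of 1.06 ± 0.375 in IKKa-null cells was not called (limma adjusted p = 0.0749).

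Herpud1 read 8.59 and 7.66 on the wild-type arrays, 8.65 and 8.07 on the IKKa-null arrays and 8.66 and 7.72 on the reconstituted arrays, so its groups overlapped. The 6 annotated members left untested were Calr (calreticulin), Dnajc3 (an inhibitor of eIF2 kinases and ER co-chaperone), Manf (a secreted ER stress protein) and Sesn2 (sestrin 2), which were not above background on any array, and Edem1, which acts in removing misfolded glycoproteins, and Trib3, a pseudokinase that binds ATF4, which were above it on 1 array. Since a probe can fail to read an expressed gene, no level is given for them.

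The wider pathway was read through 136 other tested genes in 9 lists. Of these, 24.3% were called between IKKa-null and wild-type cells, 12.5% between reconstituted and IKKa-null cells and 31.6% between reconstituted and wild-type cells, and 0 between the array numbers. The shares of all named genes in the 3 group comparisons were 29%, 14.3% and 36.9%, each above that of the lists. The eIF2 subunits, kinases, phosphatases and the exchange factor eIF2B, which stand upstream of the ATF4 branch, had 6 of 15 tested genes lower and 0 higher in IKKa-null cells, and 10 of 15 lower and 0 higher in reconstituted cells, both against wild-type, with medians of -0.58 and -0.94. Of all named genes, 15.4% and 21.3% were lower in these comparisons. Eif2b1, a subunit of eIF2B, fell by 1.37 and 1.49 (limma adjusted p = 0.00493 and 0.00313), and Eif2s2, eIF2 beta, fell by 1.21 and 1.46 (adjusted p = 0.0102 and 0.00438). Eif2ak1, the haem-regulated eIF2 kinase, fell by 1.20 in IKKa-null cells (adjusted p = 0.00298). Eif2s3x, the X-linked counterpart of Eif2s3y, fell by 1.33 in reconstituted against wild-type cells (adjusted p = 0.0035). Its fall and the difference of wild-type cells in sex-linked transcripts cannot be told apart. The reconstituted count was 5 without either wild-type replicate, and the IKKa-null count was 3 under median scaling and 2 when wild-type replicate 2 was left out.

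Other genes of amino acid synthesis and one-carbon metabolism had 4 of 11 lower and 0 higher against wild-type in both the IKKa-null and the reconstituted cells. Shmt1, the cytosolic partner of Shmt2, was lower by 1.57 and 1.65 on the log2 scale with means of 8.32 ± 0.159 on the wild-type arrays, 6.75 ± 0.0472 on the IKKa-null arrays and 6.67 ± 0.0452 on the reconstituted arrays (SD, n = 2 arrays). Aldh1l2, a mitochondrial folate enzyme, read 7.88 ± 0.0868 on the wild-type arrays, 5.78 ± 0.518 on the IKKa-null arrays and 7.68 ± 0.358 on the reconstituted arrays. The probe was above background on 1 of 2 IKKa-null arrays, so the size of a change against that group is uncertain. Its limma changes were -2.11 from wild-type to IKKa-null cells (adjusted p = 0.00301) and 1.90 from IKKa-null to reconstituted cells (adjusted p = 0.00744). Aminoacyl-tRNA synthetases had 0 of 15 called in IKKa-null cells and 5 lower and 0 higher in reconstituted cells against wild-type, Tars among them (-0.99, limma adjusted p = 0.00572). Amino acid transporters had 1 of 9 higher and 1 lower in IKKa-null against wild-type cells, 1 higher and 1 lower in reconstituted against IKKa-null cells, and 0 higher and 2 lower in reconstituted against wild-type cells. Slc38a4 was not above background on either IKKa-null array. It was at least 6.84-fold lower there than in wild-type cells and at least 1.73-fold higher in reconstituted than in IKKa-null cells. From wild-type to reconstituted cells it fell by 1.98 on the log2 scale. Slc1a3, a glutamate transporter, was 2.60-fold higher than wild-type when IKKa was absent. On both reconstituted arrays it was not above background, at least 4.14-fold lower than in IKKa-null and at least 1.59-fold lower than in wild-type cells. Other ATF4 regulators and targets had 1 of 15 higher and 1 lower without IKKa, and 2 higher and 0 lower in reconstituted cells, against wild-type.

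Among other ER genes, folding and oxidation genes had 1 of 18 higher and 4 lower than wild-type without IKKa, 3 higher and 0 lower from IKKa-null to reconstituted cells, and 5 higher and 1 lower between reconstituted and wild-type cells. Fkbp9, a prolyl isomerase, was higher than in wild-type cells by 1.02 and 1.47 in the IKKa-null and reconstituted cells, and Erp29, a secretory chaperone, fell by 1.16 and 0.76. Degradation genes had 3 of 13 higher and 0 lower without IKKa, and 3 higher and 2 lower in reconstituted cells. Ube2j1, a ubiquitin-conjugating enzyme of the ER membrane, was higher than in wild-type cells by 1.26 and 1.28. Of the genes of ER-to-Golgi transport and stress regulation, 1 of 17 was higher and 5 lower in IKKa-null cells, with Kdelr2, a receptor that returns chaperones to the ER, falling by 1.06 there and rising by 0.92 from IKKa-null to reconstituted cells (limma adjusted p = 0.00896 and 0.0256). Translocation and glycosylation genes had 2 of 23 higher and 3 lower without IKKa, and 3 higher and 3 lower in reconstituted cells, both against wild-type. Of the control genes, Gapdh was not called between IKKa-null and wild-type cells (0.18, limma adjusted p = 0.496), and Actb fell by 0.60 (adjusted p = 0.0402).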

How the data were processed

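RNA from 3 groups of 2 samples was read on 6 Illumina mouse bead arrays. The deposited values used are the average bead intensity per target, not normalized, per the file headers. The deposited series matrix holds intensity values that equal the quantile-normalized array intensities. No label states how the authors computed that matrix. Each target took its name from the matrix probe with its values on all 6 arrays (46116 of 46120), using GEO's platform annotation. Of the targets, 29534 had 1 symbol, 11 several and 16575 none.

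Background was corrected with limma's nec (limma 3.58.1, R 4.3.3) on 394 probes for immune gene segments and spikes, with an offset of 16. Values were then quantile normalized and log2 transformed. A probe was above background if under 1% of those 394 probes reached its signal, and tested if this held on at least 2 arrays. Group means were fitted with lmFit and eBayes on all 6 arrays (3 residual degrees of freedom), and p-values were Benjamini-Hochberg adjusted over 11658 probes. The array numbers were compared in a fit with group and number (2 residual degrees of freedom). The procedure was tested on simulated data.

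A gene was represented by its brightest probe. Members and lists were chosen with earlier results of these data known. Members called in any comparison are given in full, the others by values or ranges, and up to 3 genes per direction of each other list. The array numbers were not taken to pair the samples, since only 2 numbers are shared: the correlation of same-numbered deviations was 0.297, 0.0507 and 0.369 for the 3 pairs of groups. The small number of arrays limits the precision. Alternatives were other background corrections, normalizations, filters and probe choices, the replicate block, and each array left out. They were not all distinct, so counts of alternatives are not counts of independent checks. The deposited matrix values nearly repeat no background correction. For the array numbers, leaving out either array of a group gave the same fit.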

Additional observations from a re-analysis of the deposited data

Results flagged for a closer look

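Edem1, not tested because it was above background on 1 array, had a raw intensity of 235.8 on array reconstituted 1, and Trib3 had 186.0 on array wild-type 1, also the only array where it was above background. Both are signals outside the comparisons, each on 1 array of a group whose other array did not show it.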

How the results depend on the processing

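No member's called change reversed under any of the 15 alternatives. Counts of members called, by comparison, moved as follows. With no background correction, and likewise with the deposited matrix values, 2 members were higher in IKKa-null against wild-type cells, 2 higher in reconstituted against IKKa-null cells, 9 lower in reconstituted against wild-type cells and 3 higher on the arrays numbered 1. An offset of 50 gave 8 lower in reconstituted against wild-type cells and 2 higher on the arrays numbered 1, as did probes detected on all 6 arrays. Median scaling gave 2 higher and 0 lower in IKKa-null against wild-type, 0 higher and 3 lower in reconstituted against IKKa-null, 2 higher and 1 lower in reconstituted against wild-type, and 3 higher on the arrays numbered 1. It also moved the median change of all probes from -0.067 to 0.036, from -0.012 to -0.17, from -0.076 to -0.131 and from -0.008 to 0.103 in these comparisons, and the probes called higher and lower in IKKa-null cells from 1744 and 1629 to 1333 and 561. Cyclic loess gave 0 higher in reconstituted against IKKa-null cells. With no filter there were 0 higher in that comparison and 3 lower in reconstituted against wild-type cells. Leaving out 1 array gave 1 to 2 higher and 0 to 4 lower in IKKa-null against wild-type, 0 higher and 0 to 2 lower in reconstituted against IKKa-null, 0 to 3 higher and 0 to 7 lower in reconstituted against wild-type, and 0 between the array numbers. The lone array left in a group was then assumed to vary like the others. Leaving out an array lowers the number of arrays and the filters change the number of probes, and the cause of these moves was not tested.

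With the replicate number as a replicate block, 4 members were higher in IKKa-null against wild-type cells, and 0 higher and 3 lower in reconstituted against IKKa-null cells. Chac1 and Ddit3 were then higher in IKKa-null cells (limma adjusted p = 0.0186 and 0.0334) and lower in reconstituted against IKKa-null cells (0.00628 and 0.0113).

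With 2 arrays a group, the precision of each change is limited. The changes of 0.67 ± 0.261 for Xbp1 and 1.06 ± 0.375 for Dnajb9 in IKKa-null against wild-type cells were not called, but this depended on the setting. Xbp1 was called higher there with no background correction and with the deposited matrix values, for example. Dnajb9 was called higher there under median scaling and with the replicate block. Dim probes such as those of Dnajb9 and Ern1, and that of Canx on the wild-type arrays, lie near background. There the correction and its offset set the size of a change.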
